A study of Danio rerio with 6 samples.

Results

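Axon guidance ligands and receptors were followed through tumours of zebrafish on an expression microarray. The members were all probe sets whose only platform gene symbol begins with the name of a semaphorin of classes 3 to 7, a plexin, neuropilin 1 or 2, a numbered netrin, a slit, a robo, an Eph receptor, an ephrin, dcc or unc5. This rule took 47 of 15502 tested probe sets, which stand for 40 of 8793 named genes. Of the 40, 22 encode ligands and 17 encode receptors. The remaining one, unc50, met the rule through its first letters alone: it encodes a protein known in worms as a Golgi membrane protein and is no unc5 netrin receptor, so it is given apart. No gene of dcc or of the unc5 receptors was among the members, and those receptors were not analysed here.

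One array was run for each of 6 tumours. Small round blue cell tumours (SRBCT) make up 3 of them and have the genotype Tg(HSP:EWS-FLI1); p53M214K/M214K. They arose in fish with somatic insertions of a transposon in which the HSP70 heat shock promoter drives the human EWS-FLI1 fusion, the oncoprotein of Ewing sarcoma. The 3 malignant peripheral nerve sheath tumours (MPNST) have the genotype p53M214K/M214K and no transgene, so homozygosity for the M214K change in p53 is common to both groups. The titles call the arrays of a group biological replicates. Ages are not given in the labels, the promoter is not confined to a cell type, and the tumours were taken as tissue with whatever other cells they held. In such bulk tissue, fewer cells of a type and less RNA per cell cannot be told apart.

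Axon guidance molecules steer the growing tips of axons by attraction or repulsion, and the same molecules direct migrating neural crest cells and the branching of blood vessels. Class 3 semaphorins are secreted, and most of them bind neuropilins, which signal through plexins. Most other semaphorins are membrane proteins that bind plexins directly. Slits repel axons through Robo receptors, netrins act through Dcc and Unc5 receptors, and ephrins, which are tethered to the membrane, bind Eph receptor tyrosine kinases on neighbouring cells.

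Values are log2 expression values after RMA, a method that corrects background, equalises the distribution of values between arrays and combines the short probes of a probe set. All differences are SRBCT minus MPNST on this log2 scale. A gene with several probe sets is represented by the one with the highest mean over the 6 arrays, and the level of one gene cannot be set against that of another, because probe sets differ in their brightness. Differences were tested with limma's moderated test on all probe sets, and those with a Benjamini-Hochberg adjusted p under 0.05 over all 15502 were called. The 3 arrays in each group limit the precision of every value.

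One array of the SRBCT group stood apart over the whole array. SRBCT 3 correlated across probe sets at 0.892 and 0.864 with the other SRBCT arrays, which correlated with each other at 0.939, and at 0.875 to 0.916 with the MPNST arrays. Of all probe sets 140 were called over the 6 arrays (0.903%), and 1140 without SRBCT 3 (7.35%). Calls, and the larger differences that rest on that array, are given with and without it. SRBCT 3 was singled out from these same values, and the fit without it has 2 SRBCT arrays against 3 MPNST arrays. Leaving out the array that stands apart narrows the spread within SRBCT for many probe sets. Adjusted p-values and calls without SRBCT 3 therefore describe the remaining arrays and are no independent evidence. Neuron markers (8 of 16 listed were measured) lay a median of 1.86, 1.37 and 0.32 above their MPNST mean on SRBCT 1, 2 and 3. Radial glia and astroglia markers (6 of 8 measured) lay 3.50, 3.61 and 1.1 above it. Intestine and pancreas markers (8 of 10 measured) were at 1.0, -0.33 and 3.28 on SRBCT 1, 2 and 3. On MPNST 1, 2 and 3 they were at 0.12, -0.09 and -0.13. There prss1 was at 8.79, 4.90 and 5.18, and fabp2 at 4.29, 5.03 and 4.57. Liver markers (5 of 7 measured) were at -2.0, -1.77 and -1.35 on the SRBCT arrays. On MPNST 1, 2 and 3 they were at 3.52, -2.07 and -1.85, with fgb at 10.84, 3.39 and 3.47. The part of such cells in the MPNST 1 values was not tested. Oocyte markers (6 of 9 measured) were at -4.0, -5.06 and -4.21 on the SRBCT arrays, and at 1.22, -0.39 and -0.81 on MPNST 1, 2 and 3. Schwann cell and myelin markers (7 of 11 measured) were at 0.59, -0.11 and 0.87 on SRBCT 1, 2 and 3, and differed among themselves. The Schwann cell and glial regulator sox10 was between 10.34 and 11.01 on SRBCT arrays and between 10.45 and 10.75 on MPNST arrays. cldnk, a claudin of zebrafish myelinating glia, had a difference of 3.89 (adjusted p 0.0575, and 0.0177 without SRBCT 3). pmp22b, a peripheral myelin protein gene, had one of -4.26 (adjusted p 0.111, and 0.0027 without SRBCT 3). Its paralog pmp22a had a difference of 1.33 (adjusted p 0.393), and 5 of the 7 markers were above 0. Epithelial markers (6 of 6 measured) were at -1.31, -1.70 and 0.17 on SRBCT 1, 2 and 3, with epcam called lower in SRBCT over the 6 arrays. Leukocyte markers (9 of 10 measured) were at -1.1, -0.35 and -1.51 and fibroblast markers (5 of 7 measured) at -1.01, 0.82 and -1.48. The fibroblast marker fn1b (-2.52, limma adjusted p 0.0303) and 4 of the 6 oocyte markers were also called lower in SRBCT over the 6 arrays.

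No axon guidance probe set was called over the 6 arrays: 0 of 47 passed limma's test, against 0.903% of all probe sets. At an unadjusted p under 0.05 there were 5 of the 47 (10.6%), against 15.2% of all probe sets. The 5 were efnb2a, efnb3b, sema3d, epha4b and sema5a. The count of called members was also 0 with the other variance model, with array weights and with the replicate number as a block. Without SRBCT 3 it was 4 (8.51%, against 7.35% of all probe sets): sema5a and efnb2a, both ligands, were higher in SRBCT, and nrp1a and nrp2b, both receptors, were lower. Each direction held 4.26% of the members, against 3.67% of all probe sets called higher and 3.68% called lower, so these shares were near the background. All SRBCT arrays lay above all MPNST arrays for 13 of the 47 probe sets (27.7%, against 13.2% of all probe sets), and below them for 1 (2.13%, against 9.34%). The gap between the groups was small where they were separate, from 0.02 log2 units for sema3e and efna5b to 0.39 for efnb2a.

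The ligand genes as a group lay slightly higher in SRBCT. Their median difference was 0.33 over 22 genes, 20 of which had a difference above 0. The 17 receptor genes had a median of 0.14, with 11 above 0. Over all 8793 genes the median was 0.07 and 55.9% were above 0. No test was made of these medians. They moved with the brightness of the probe sets: 20 of the 22 ligand genes and 7 of the 17 receptor genes were dimmer than the median probe set, where all genes had a median difference of 0.14 and 64.6% were above 0. The dim axon guidance genes had a median of 0.34 (24 of 27 above 0), and the 12 brighter ones a median of 0.09 (7 above 0), against 0.00 for all brighter genes. The 7 dim receptor genes ran from -1.23 (epha4b) to 0.42 (robo3), with epha4l in the middle at 0.32. Among the brighter genes, the 2 ligand genes had a median of 0.265 and the 10 receptor genes one of -0.06. The ligand and receptor medians thus compare mostly dim genes with mostly brighter ones. Relative to the MPNST means, the ligand genes were at a median of 0.47, 0.09 and 0.33 on SRBCT 1, 2 and 3. On MPNST 1, 2 and 3 the ligand genes were at -0.10, 0.06 and 0.07. The receptor genes were at 0.03, -0.23 and 0.61 on SRBCT 1, 2 and 3, so on SRBCT 3 their median was above that of the ligand genes. All dim genes were at 0.17, -0.04 and 0.14 on SRBCT 1, 2 and 3. The 16 hybridization control probe sets, which read RNA added to each sample, had a median of 9.73, 7.55 and 9.15 on SRBCT 1, 2 and 3. On MPNST 1, 2 and 3 the controls had a median of 7.64, 7.99 and 7.69. SRBCT 1 and 3 were thus high in the ligand genes, in dim genes in general and in the added controls. The part of that pattern in the shift was not tested.

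**Figure D1:**
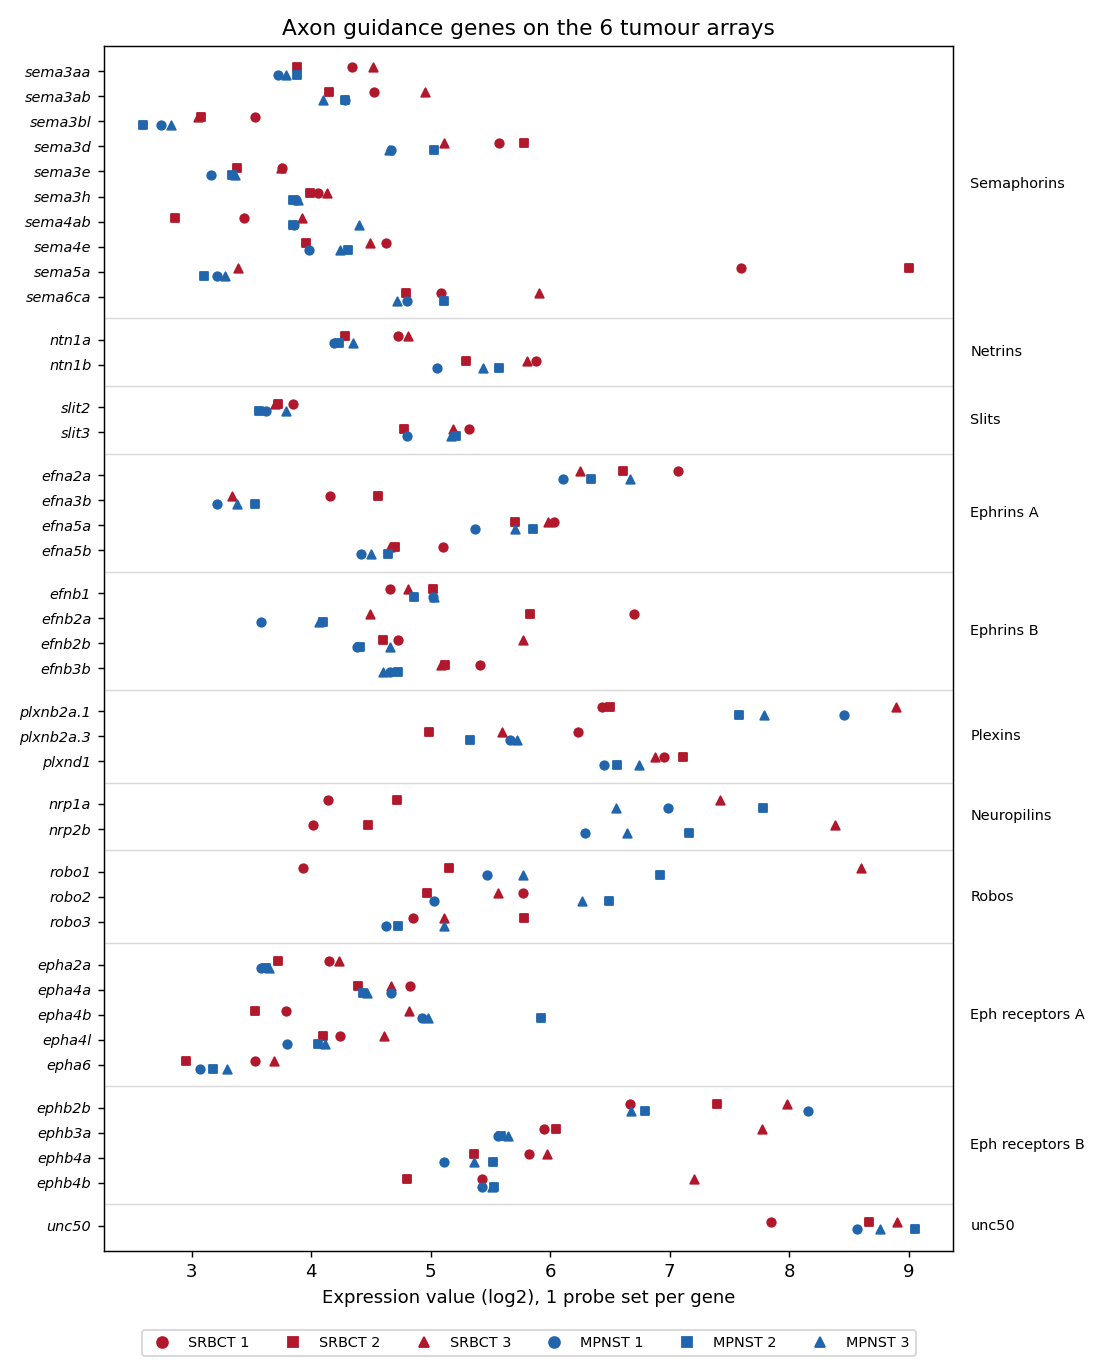
Expression values (log2, horizontal axis) of the 40 genes on each array, 1 probe set per gene, grouped by family; red symbols are SRBCT and blue symbols MPNST, with the shape giving the replicate. The 6 arrays spanned under 1 log2 unit for 21 of the 40 genes, whereas sema5a reached 7.60 and 9.0 in the first and second SRBCT tumours with 3.39 in the other one, and nrp2b had 4.02, 4.48 and 8.38.

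Among the semaphorins, 9 of 10 genes had a difference above 0, and that of sema5a was by far the largest among them. sema5a encodes a membrane semaphorin with thrombospondin repeats that can attract or repel axons. It was at 7.60, 9.0 and 3.39 on SRBCT 1, 2 and 3, against 3.21, 3.1 and 3.28 on MPNST 1, 2 and 3. Every SRBCT array was above every MPNST array, but SRBCT 3 lay only 0.11 log2 units above the highest of them, while SRBCT 1 and 2 were far higher. The difference was 3.47 (SE 1.36, limma adjusted p 0.315) over the 6 arrays, and 5.10 (SE 0.43, 34.4-fold, adjusted p 0.00409) without SRBCT 3. Of all probe sets, 0.49% had an SD within SRBCT at least as large as that of sema5a (2.92), while its SD within MPNST was 0.091.

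The secreted class 3 semaphorins showed smaller differences in one direction. sema3d, which in zebrafish guides axons and neural crest cells, was at 5.57, 5.78 and 5.11 on the SRBCT arrays, against 4.67, 5.03 and 4.65 on the MPNST arrays. The groups did not overlap, and the difference of 0.70 (SE 0.25) did not pass (adjusted p 0.287, and 0.0842 without SRBCT 3). sema3bl (0.50), sema3e (0.34) and sema3h (0.19) also had all SRBCT arrays above all MPNST arrays, though sema3e by only 0.02 log2 units. sema3aa (0.45, and 0.31 without SRBCT 3) and sema3ab (0.32, and 0.12 without SRBCT 3) overlapped. All 6 class 3 genes were dim. Among the membrane semaphorins of classes 4 and 6, sema6ca differed by 0.39 (0.06 without SRBCT 3) and sema4e by 0.18 (0.12 without SRBCT 3). sema4ab had the one negative difference of the family, -0.63 (SE 0.33, adjusted p 0.414): it was at 3.44, 2.86 and 3.92 in SRBCT, against 3.86, 3.85 and 4.40 in MPNST. Across the semaphorins, 5 of 10 genes had separate groups, all with SRBCT above, a pattern shown by 12.3% of all genes.

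Netrins and slits, the secreted cues of the midline, differed little. ntn1b was at 5.88, 5.30 and 5.81 in SRBCT, against 5.05, 5.57 and 5.44 in MPNST, a difference of 0.31 (SE 0.25, adjusted p 0.569) with overlapping groups. For ntn1a the 3 probe sets gave 0.35, 0.18 and -0.05, and the first, whose name marks probes that may bind related transcripts, was at 4.73, 4.28 and 4.81 against 4.19, 4.23 and 4.35. slit2 differed by 0.10 (SE 0.17, adjusted p 0.793), with 3.85, 3.72 and 3.70 in SRBCT and 3.62, 3.56 and 3.79 in MPNST. The other slit gene, slit3, was at 5.32, 4.78 and 5.19 in SRBCT, against 4.80, 5.21 and 5.17 in MPNST, a difference of 0.04 (SE 0.23). The sign of both slit differences was not stable: it turned for slit2 under a further quantile normalization, and for slit3 when single arrays were left out.

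The ephrins of the A class, which are anchored in the membrane by a lipid, had 4 of 4 genes above 0. efna3b was at 4.16, 4.56 and 3.34 on SRBCT 1, 2 and 3, against 3.21, 3.53 and 3.38 in MPNST. SRBCT 1 and 2 were thus above all MPNST arrays and SRBCT 3 was among them. The difference was 0.65 (SE 0.34, adjusted p 0.416), and 0.99 (SE 0.23, adjusted p 0.0701) without SRBCT 3. efna2a was at 7.07, 6.61 and 6.25 in SRBCT, against 6.11, 6.34 and 6.67 in MPNST, with a difference of 0.27 (SE 0.28, adjusted p 0.656). The efna5 genes, whose mammalian counterpart orders the retinal map, differed by 0.30 (efna5b, groups separate) and by 0.26 (efna5a, groups overlapping). The other probe sets of efna5a differed by 0.54 and 0.05, and both by -0.09 without SRBCT 3.

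efnb2a showed the largest difference among the ephrins. Ephrin B2 is known as a marker of arterial endothelium and is also used by neural cells at tissue boundaries. efnb2a was at 6.70, 5.83 and 4.49 on SRBCT 1, 2 and 3, against 3.58, 4.1 and 4.07 in MPNST. All SRBCT arrays were above all MPNST arrays, SRBCT 3 again being the nearest to them. The difference was 1.76 (SE 0.56, 3.38-fold, adjusted p 0.255), and 2.35 (SE 0.34, 5.09-fold, adjusted p 0.0185) without SRBCT 3. Its paralog efnb2b was at 4.73, 4.60 and 5.77 in SRBCT, against 4.38, 4.41 and 4.66 in MPNST. SRBCT 3 was thus the highest array for this efnb2b probe set and the lowest SRBCT array for efnb2a. The difference of this efnb2b probe set was 0.55, and 0.18 without SRBCT 3. The dimmer probe set of efnb2b was at 4.16, 4.06 and 4.24 in SRBCT, against 3.79, 3.98 and 3.99 in MPNST. There SRBCT 3 was above the next array by only 0.08 log2 units. The endothelial markers measured (6 of 14) had a median difference of 0.29, with 5 of 6 above 0 and none called. fli1, a transcription factor of endothelium, was at 5.75, 5.12 and 5.67 in SRBCT, against 5.1, 5.01 and 4.83 in MPNST. It was the 1 endothelial marker with all SRBCT arrays above all MPNST arrays. The SRBCT transgene is itself a fusion with human FLI1, and its part in the fli1 values was not tested. kdrl, a VEGF receptor of endothelium and the one marker below 0, was at 4.95, 5.81 and 4.69 in SRBCT, against 7.24, 6.11 and 5.95 in MPNST. efnb3b, a ligand known from the spinal midline of mice, was at 5.41, 5.12 and 5.09 in SRBCT, against 4.66, 4.73 and 4.60 in MPNST. Its groups did not overlap and its difference was 0.54 (SE 0.18, adjusted p 0.275). The 2 probe sets of efnb1 disagreed in sign (-0.14 and 0.35), and neither passed.

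**Figure D2:**
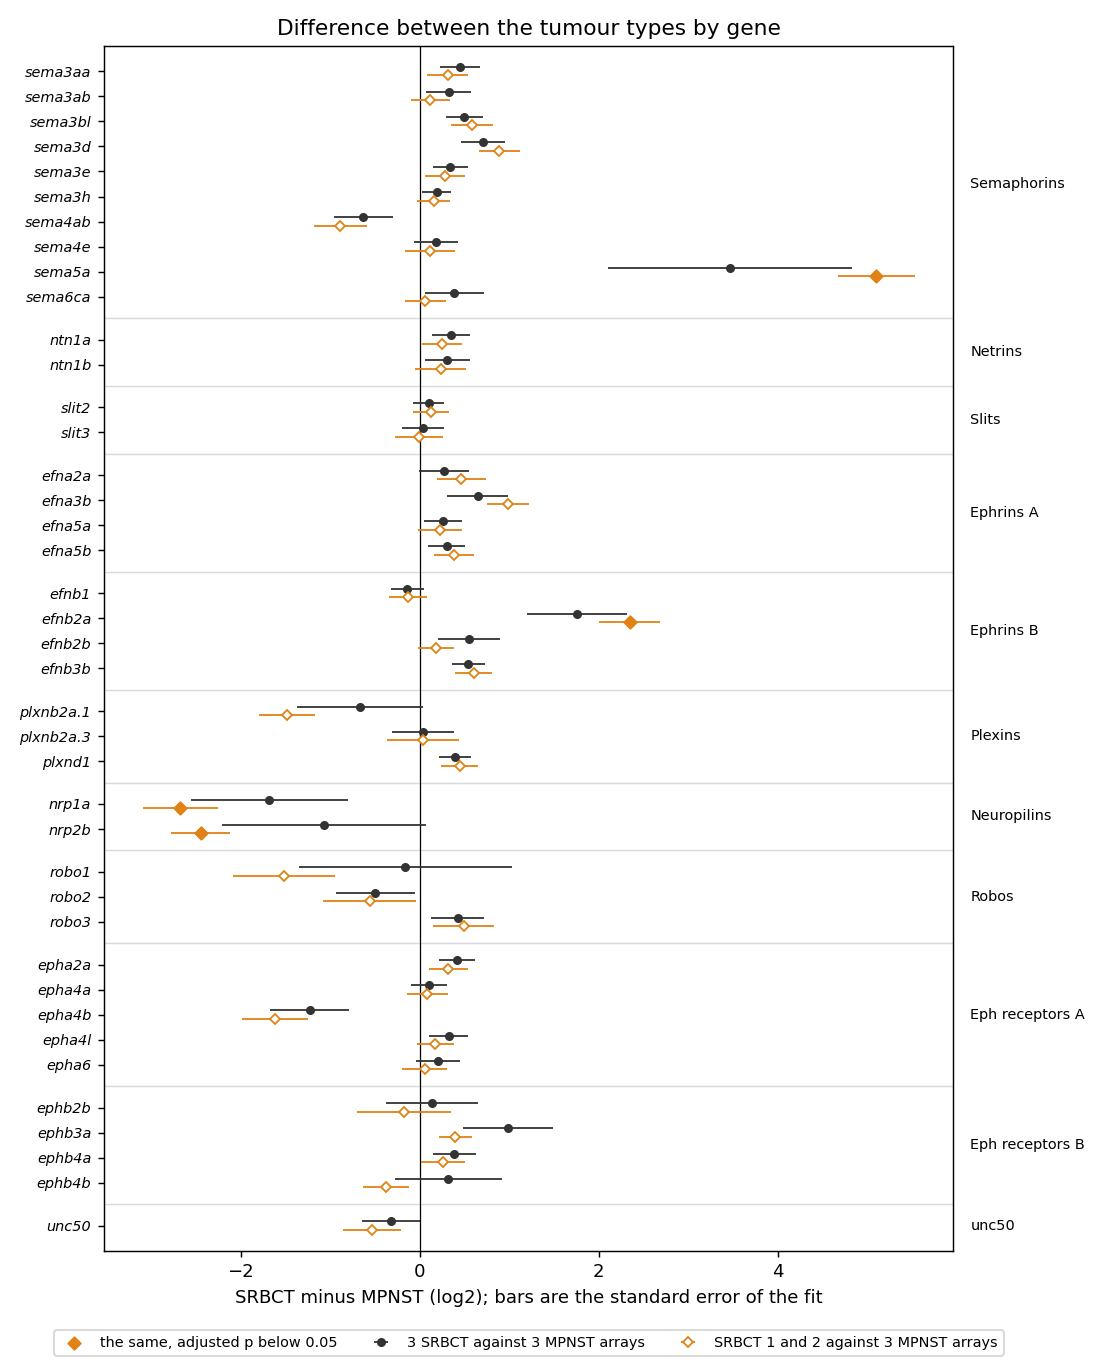
Difference between SRBCT and MPNST for each gene (log2, horizontal axis); black circles use all 6 arrays and orange diamonds leave out SRBCT 3, bars are the standard error of the fit, and filled diamonds mark an adjusted p under 0.05. sema5a (5.10) and efnb2a (2.35) passed on the positive side and nrp1a (-2.68) and nrp2b (-2.45) on the negative side when SRBCT 3 was left out.

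Both neuropilins were low on SRBCT 1 and 2 and high on SRBCT 3. Neuropilins are co-receptors for class 3 semaphorins and for VEGF, and are found on axons, on endothelium and on cells of the neural crest. nrp1a was at 4.14, 4.72 and 7.42 on SRBCT 1, 2 and 3, against 6.99, 7.78 and 6.55 on MPNST 1, 2 and 3. nrp2b was at 4.02, 4.48 and 8.38, against 6.29, 7.16 and 6.64. In both genes SRBCT 1 and 2 were below every MPNST array, while SRBCT 3 was among the MPNST arrays for nrp1a and 1.22 above the highest of them for nrp2b. Over 6 arrays the differences were -1.68 (SE 0.88, adjusted p 0.415) for nrp1a and -1.07 (SE 1.14, adjusted p 0.664) for nrp2b. Without SRBCT 3 they were -2.68 (SE 0.42, 6.39-fold lower, adjusted p 0.0231) and -2.45 (SE 0.33, 5.45-fold lower, adjusted p 0.0147). The median of the epithelial markers, given above, was also low on SRBCT 1 and 2 but not on SRBCT 3, while epcam was low on all 3 SRBCT arrays (6.81, 7.87 and 6.72, against 10.78, 9.88 and 9.99 in MPNST). The keratin gene krt8 was at 9.55, 9.66 and 12.82 on SRBCT 1, 2 and 3, against 12.44, 11.93 and 12.58 in MPNST, and was called lower without SRBCT 3 (adjusted p 0.0063). krt4 was below every MPNST array on all 3 SRBCT arrays (9.23, 8.22 and 9.47, against 10.47, 10.78 and 9.55). cdh1 overlapped, at 6.18, 6.42 and 7.68 in SRBCT, against 8.25, 6.26 and 8.80 in MPNST. Of the 6 epithelial markers, 2 had a difference above 0 over the 6 arrays, krt5 (2.35) and cldne (0.37). krt5 was at 3.30, 9.24 and 4.42 on SRBCT 1, 2 and 3, against 3.16, 3.64 and 3.12 in MPNST. The part of epithelial cells in the neuropilin values was not tested.

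The plexins moved apart from each other. plxnb2a.1, a B-class plexin that binds class 4 semaphorins in mammals, followed the neuropilins: it was at 6.43, 6.5 and 8.89 on the SRBCT arrays, against 8.46, 7.58 and 7.79 on the MPNST arrays. Its difference was -0.67 (SE 0.70, adjusted p 0.659), and -1.48 (SE 0.31, adjusted p 0.0538) without SRBCT 3, just short of the threshold. The related plxnb2a.3 differed by 0.04 and was at 6.23, 4.99 and 5.60, against 5.66, 5.33 and 5.72. plxnd1, which in zebrafish restrains the sprouting of vessels between the somites, was at 6.95, 7.11 and 6.88 in SRBCT, against 6.45, 6.56 and 6.74 in MPNST. The arrays of the groups did not overlap, yet the difference was small, 0.40 (SE 0.18, adjusted p 0.37).

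Among the Robo receptors, robo1 spanned the widest range within SRBCT. It was at 3.93, 5.15 and 8.60 on SRBCT 1, 2 and 3, against 5.47, 6.92 and 5.77 in MPNST, so that the lowest and the highest of all 6 arrays were SRBCT tumours. The difference of -0.16 (SE 1.19, adjusted p 0.957) turned to -1.51 (SE 0.57, adjusted p 0.205) without SRBCT 3 and to 0.82 without SRBCT 1. robo2, the slit receptor that keeps zebrafish retinal axons on course, differed by -0.50, with 5.77, 4.97 and 5.56 in SRBCT and 5.03, 6.49 and 6.27 in MPNST. robo3, which governs midline crossing, was at 4.85, 5.78 and 5.11 in SRBCT, against 4.63, 4.73 and 5.11 in MPNST, a difference of 0.42 (SE 0.30, adjusted p 0.522).

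Of the A-class Eph receptors, epha4b alone had all SRBCT arrays below all MPNST arrays, as 9.34% of all probe sets did. EphA4 sorts cells at boundaries of the hindbrain. epha4b was at 3.79, 3.53 and 4.82 on the SRBCT arrays, against 4.93, 5.92 and 4.98 on the MPNST arrays. SRBCT 3 lay 0.11 below the lowest MPNST array. The difference was -1.23 (SE 0.44, adjusted p 0.289), and -1.62 (SE 0.36, adjusted p 0.0636) without SRBCT 3. Its paralog epha4a differed by 0.11 and 0.12 in 2 probe sets, and epha2a (0.42, groups separate), epha4l (0.32) and epha6 (0.21) were dim and slightly higher. None of them passed.

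The B-class Eph receptors included a pair that was highest on SRBCT 3, above the next array by 1.72 log2 units for ephb3a and 1.67 for ephb4b. ephb3a was at 5.95, 6.05 and 7.77 on SRBCT 1, 2 and 3, against 5.56, 5.59 and 5.65 in MPNST. Its groups did not overlap, and the difference was 0.99 (SE 0.50, adjusted p 0.407), or 0.40 (SE 0.19, adjusted p 0.301) without SRBCT 3. ephb4b was at 5.43, 4.80 and 7.20, against 5.43, 5.53 and 5.51, with the SD within MPNST at 0.053 and within SRBCT at 1.24. Its difference of 0.32 (adjusted p 0.81) became -0.38 without SRBCT 3. ephb4a, whose product is the venous receptor of ephrin B2, differed by 0.39 (SE 0.24, adjusted p 0.476). ephb2b was at 6.67, 7.40 and 7.98 in SRBCT, against 8.16, 6.79 and 6.68 in MPNST, a difference of 0.14 (SE 0.51, adjusted p 0.909).

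The spread within the tumour types was itself uneven. The SD was larger within SRBCT than within MPNST for 39 of the 47 probe sets (83%), as for 67.6% of all probe sets. It reached at least 1 within SRBCT for 9 members (19.1%, against 11.2% of all probe sets) and within MPNST for 0 (against 4.7%). In all 9, SRBCT 3 was the array apart from the others of its group, as in 62.2% of the 1740 probe sets with such an SD. For sema5a and efnb2a SRBCT 3 was low, at -4.91 and -1.78 relative to the mean of SRBCT 1 and 2. For the 7 others it was high, at 4.13 for nrp2b, 4.06 for robo1, 2.99 for nrp1a, 2.42 for plxnb2a.1, 2.09 for ephb4b, 1.90 for one efna5a probe set and 1.77 for ephb3a. A lone high SRBCT 3 accounted for 33% of the 1740. The efna5a probe set, at 5.44, 5.26 and 7.25 against 5.41, 5.25 and 5.67 in MPNST, was not matched by the brighter one of that gene (6.03, 5.71 and 5.98, against 5.37, 5.86 and 5.71). SRBCT 3 was the highest of all 6 arrays by at least 1 log2 unit for 6 of 47 members (12.8%), against 1.75% of all probe sets. These are efna5a in the dimmer of its 2 brightest probe sets, efnb2b in the brighter of its 2 probe sets, nrp2b, robo1, ephb3a and ephb4b. That count was chosen after the values were seen and describes 1 tumour. The median of the intestine and pancreas markers was also highest on SRBCT 3, at the 3.28 given above. Not every marker of that list was: fabp6 (11.28 and 11.10), ins (6.65 and 6.13) and vil1 (3.31 and 3.17) were higher on SRBCT 1 than on SRBCT 3. The part of intestine and pancreas cells in the values of the members was not tested.

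**Figure D3:**
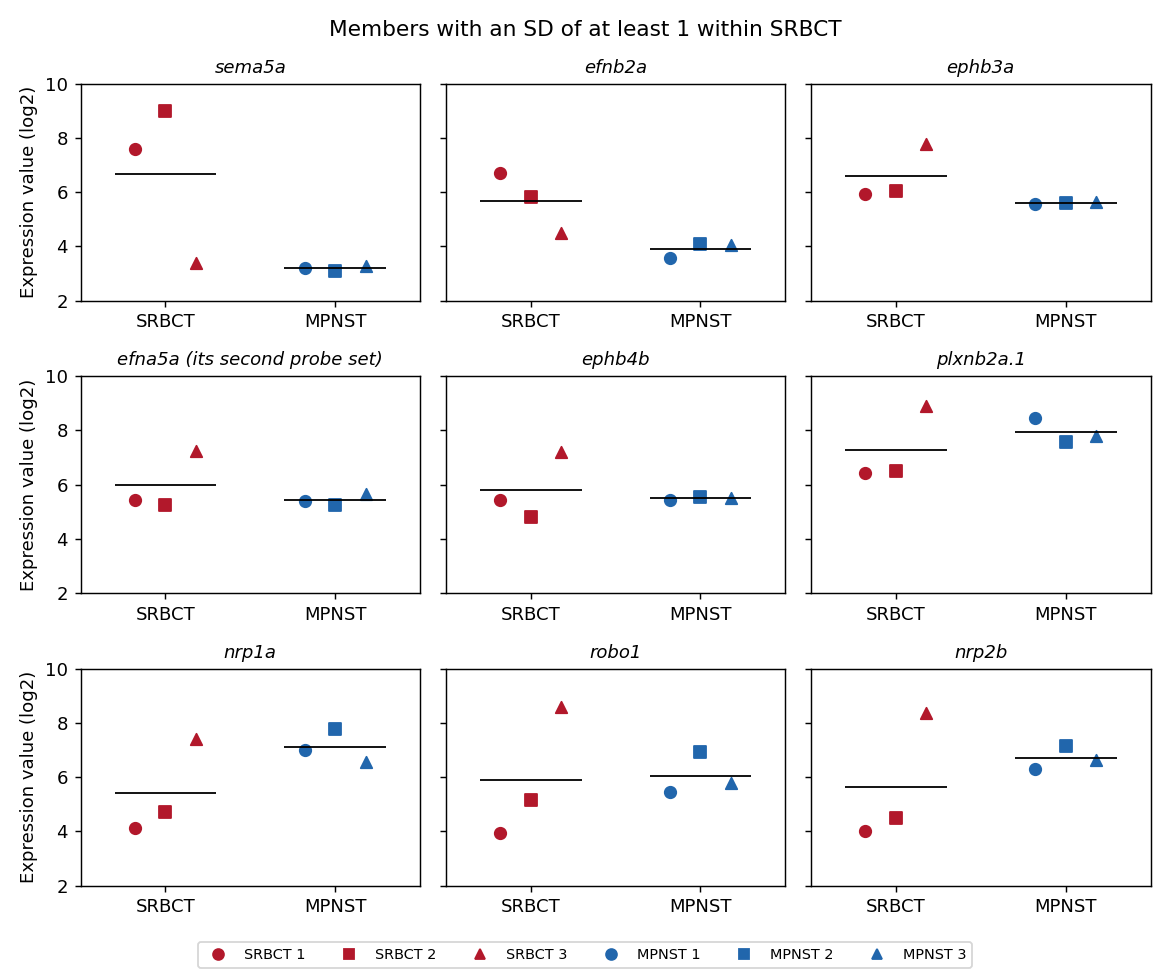
Expression values (log2, vertical axis) of the 9 members with an SD of at least 1 within SRBCT; red symbols are SRBCT 1, 2 and 3, blue symbols MPNST, and lines are group means. SRBCT 3 (triangle) was low for sema5a (3.39) and efnb2a (4.49) and high for the 7 others, with 8.60 for robo1.

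Set side by side, ligands and the receptors they bind did not all share a direction. In SRBCT 1 and 2 the class 3 semaphorin sema3d was at 0.89 relative to its MPNST mean. The other class 3 genes lay between 0.12 (sema3ab) and 0.585 (sema3bl). The neuropilins nrp1a and nrp2b were at -2.68 and -2.45. efnb2a was at 2.35, whereas the B-class receptor genes ephb4a, ephb4b, ephb3a and ephb2b were at 0.26, -0.38, 0.40 and -0.18. slit2 and slit3 were at 0.13 and -0.01, against -1.51 for robo1, -0.56 for robo2 and 0.49 for robo3. The ephrin A genes lay between 0.22 (efna5a) and 0.99 (efna3b). Of the 5 A-class receptor genes, 4 were also above 0, and epha4b was at -1.62. Among the plexins, plxnd1 was at 0.45, plxnb2a.3 at 0.04 and plxnb2a.1 at -1.48. The class 4 semaphorin sema4ab was at -0.89, in the direction of plxnb2a.1, and sema4e at 0.12. Without SRBCT 3 the median of the ligand genes was 0.24, with 19 of 22 above 0, and that of the receptor genes 0.04, with 9 of 17 above 0. These are descriptions over genes that differ in brightness, as given above, and no test of ligands against receptors was made.

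**Figure D4:**
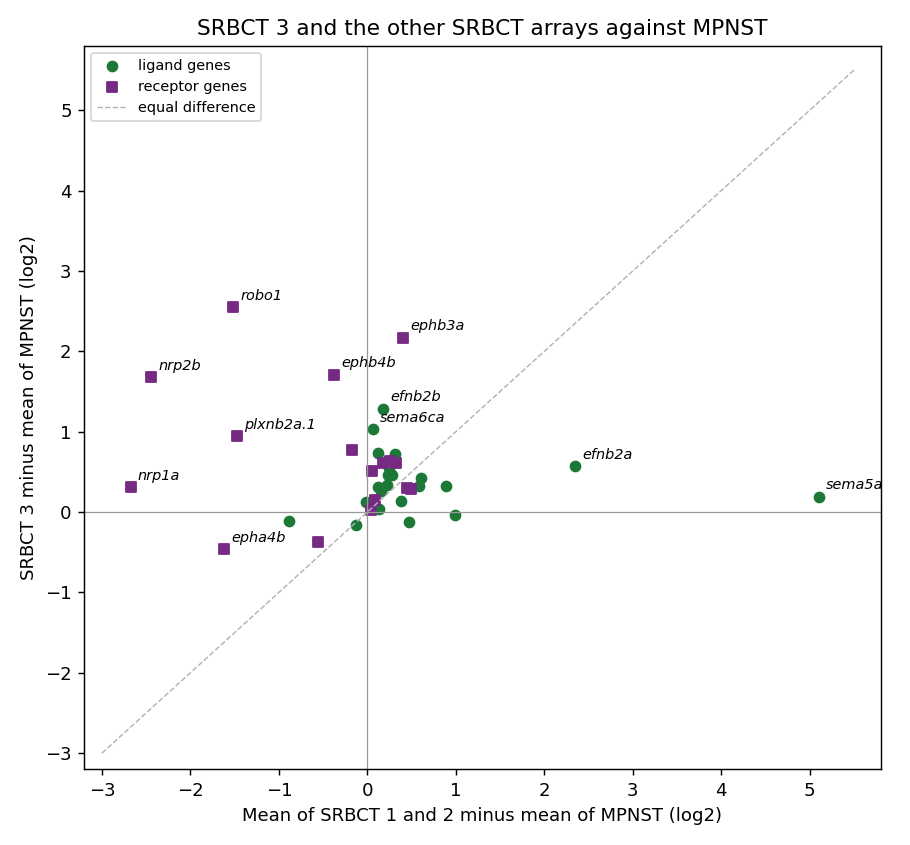
Mean of SRBCT 1 and 2 minus the MPNST mean (log2, horizontal axis) against SRBCT 3 minus the MPNST mean (log2, vertical axis) for the 39 ligand (green circles) and receptor (purple squares) genes; genes at 1 or more from 0 on either axis are named, and both axes share the MPNST mean. sema5a lies at 5.10 on the horizontal axis and close to 0 on the vertical one, and nrp1a, nrp2b, robo1 and plxnb2a.1 lie left of 0 and above 0.

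Beyond the ligands and receptors, 58 of 105 listed partners and carriers of guidance signals were measured, and 1 fell while none rose. The fallen gene was mical3b, of the MICAL family of enzymes that oxidise actin and act downstream of plexins in flies. It was at 2.93, 3.50 and 3.22 on the SRBCT arrays, against 6.27, 6.72 and 5.62 on the MPNST arrays. All 3 SRBCT arrays, SRBCT 3 included, were low and close together. The difference was -2.99 (SE 0.33, adjusted p 0.0202), and leaving out each array in turn gave adjusted p-values of 0.0134 to 0.115, of which 2 of 6 passed, those without SRBCT 3 and without MPNST 3. Falls were called for 0.785% of all genes and rises for 0.091%. The median difference of the 58 was 0.33, with 36 above 0.

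Without SRBCT 3, 6 of the 58 fell and 2 rose, against 3.95% and 3.22% of all genes. Besides mical3b, the genes that fell were farp2, which couples semaphorin 3A to plexin A in mammals (-4.23, adjusted p 0.00881), rnd3b (-2.84, adjusted p 0.00634), rgmd, of the repulsive guidance molecules (-2.82, adjusted p 0.00603), rras, a GTPase that plexins inactivate (-2.10, adjusted p 0.0255), and rasa1a, a Ras inactivator that binds Eph receptors (-1.45, adjusted p 0.0214). The genes that rose were fyna, a Src family kinase used by netrin and semaphorin receptors (3.38, adjusted p 0.00958), and dpysl5b, of the collapsin response mediator family (2.34, adjusted p 0.0261). rgmd was at 4.20, 4.90 and 7.44 on SRBCT 1, 2 and 3, against 7.35, 7.30 and 7.45 in MPNST. fyna was at 7.32, 6.08 and 3.58, against 3.27, 3.35 and 3.35. SRBCT 3 was thus close to the MPNST arrays for both, as it was for nrp1a and sema5a. For farp2 the probe sets disagreed on that array. The brightest, which gave the value above, was at 4.20, 4.69 and 9.21, against 8.45, 9.52 and 8.06. The others had SRBCT 3 below every MPNST array. One was at 2.90, 3.13 and 3.26, against 4.87, 5.44 and 4.36 (limma adjusted p 0.0394 without SRBCT 3). The other was at 4.16, 4.18 and 4.64, against 5.18, 6.30 and 4.95 (adjusted p 0.162 without SRBCT 3). rnd3b differed by -2.39 over all 6 arrays with separate groups (adjusted p 0.0862), at 4.11, 4.48 and 5.63 in SRBCT and 7.48, 6.82 and 7.10 in MPNST.

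**Figure D5:**
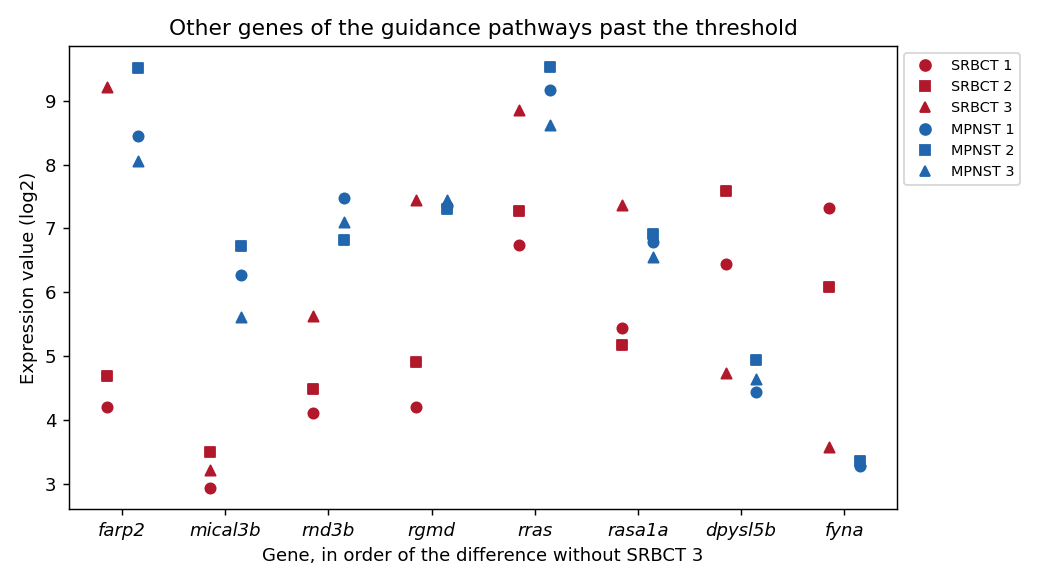
Expression values (log2, vertical axis) of the 8 partner and carrier genes that passed the threshold over 6 arrays or without SRBCT 3; red symbols are SRBCT and blue symbols MPNST, with the shape giving the replicate. mical3b is the one gene here that passed over all 6 arrays, with SRBCT between 2.93 and 3.50 and MPNST between 5.62 and 6.72.

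Several neural markers were high on the same arrays as sema5a and efnb2a. elavl3, an RNA-binding protein of young neurons, was at 8.5, 8.8 and 4.13 on SRBCT 1, 2 and 3, against 3.83, 4.1 and 3.97 in MPNST. slc1a2b, a glutamate transporter of astroglia, was at 11.53, 11.13 and 4.76, against 3.96, 3.91 and 3.83. Neither passed over 6 arrays (adjusted p 0.308 and 0.277), and both passed without SRBCT 3. The growth cone protein gene gap43 was at 7.62, 6.34 and 5.32, against 5.14, 5.42 and 5.42, and did not pass in either fit. Without SRBCT 3, 4 of 8 neuron markers and 3 of 6 radial glia and astroglia markers were called higher in SRBCT. Other markers of these lists had another pattern. The synaptic vesicle gene syt1a was at 5.61, 6.10 and 6.55 in SRBCT, against 5.14, 4.36 and 7.70 in MPNST. isl1a, a transcription factor of motor and sensory neurons, was at 3.76, 3.30 and 3.83, against 3.41, 3.61 and 3.51. The glial calcium-binding protein gene s100b had a difference of -0.71 over 6 arrays and -0.24 without SRBCT 3. Whether the levels of sema5a and efnb2a follow from the number of neural cells in each tumour was not tested. Oocyte markers were low on all 3 SRBCT arrays and high on all 3 MPNST arrays, as mical3b and, by a margin of 0.11, epha4b were, and their part in those values was not tested either.

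unc50, which is not an axon guidance gene, was at 7.85, 8.67 and 8.90 in SRBCT, against 8.57, 9.05 and 8.76 in MPNST, a difference of -0.32 (SE 0.32, adjusted p 0.645).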

How the data were processed

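Total RNA of 6 tumours was copied from an oligo(dT) primer, labelled with biotin and hybridized to zebrafish Affymetrix arrays, per the labels' protocols. The authors deposited log2 values made with RMA, the affy package and R 2.2.0, per the submitters' processing notes. RMA tends to draw dim values together, which can understate their differences. Dim genes in general also lay higher in SRBCT (median 0.14, 64.6% above 0). Whether the differences of dim members are understated or overstated was not tested. That the base is 2 rests on RMA's usual output, and the values run between 1.86 and 13.88. Depth has no meaning for arrays, and precision is limited by their number.

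From these values, 115 control probe sets were left out and 15502 tested with limma 3.58.1 in R 4.3.3 (2 groups, 6 arrays, no covariates, Benjamini-Hochberg adjustment). Symbols came from the platform annotation of 2016, and all 47 member identifiers were found unchanged in the RefSeq table of GRCz12tu. The script was tested on simulated data. The members and lists were chosen with earlier results of these data known. Per-array values are given for members that are called over 6 arrays or without SRBCT 3, have separate groups and a difference of at least 1, or have the smallest p or highest mean of their family. Others given per array (sema4ab, efnb2b, plxnb2a.3, robo2, ephb4b, the efna5a probe sets, unc50, and genes that are no members) were added after their values were seen. The alternatives were leaving out each array, median centring, a further quantile normalization, leaving out dim probe sets, eBayes with a trend and robust estimation, weighted arrays, a replicate block, a minimum difference and averaging each gene over its probe sets. Sequences of the members were not used here.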

Additional observations from a re-analysis of the deposited data

How the results depend on the processing

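The number of called probe sets, 140 over the 6 arrays, ranged from 26 (without SRBCT 1) to 1140 (without SRBCT 3) when 1 array was left out, and was 38 without MPNST 2 and 57 without MPNST 3. It was 278 with array weights and 88 with the replicate block. Leaving out 1 array gave 0 to 4 called members, and 0 in every fit other than the one without SRBCT 3. The median difference of the 39 ligand and receptor genes was 0.18 to 0.38 in those fits and 0.088 without dim probe sets, where 12 genes remained. That of the ligand genes was 0.24 to 0.48, and that of the receptor genes 0.04 to 0.34, or -0.06 without dim probe sets. Signs turned for slit2 under a further quantile normalization (-0.005). When 1 array was left out they turned for robo1 (range -1.51 to 0.82), slit3 (-0.093 to 0.20) and ephb2b (-0.18 to 0.62). Of 217 alternative values of the 19 named probe sets, 203 kept their direction and their side of the threshold, 4 passed it (sema5a, efnb2a, nrp1a and nrp2b without SRBCT 3) and 10 changed sign. The causes were not tested. The labels tie no replicate number to a shared fish, batch or day; deviations of same-numbered arrays correlated at 0.063, 0.07 and -0.046, and the replicate block called no member. sema5a and efnb2a are among the dim probe sets that a filter on signal removes.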
